A study of Drosophila melanogaster with 24 samples.

Results

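The comparison described here set Gcn2 mutant females that had lacked dietary arginine for 3 days against Gcn2 mutant females on the full diet. Its members are the 3 libraries of the Gcn2 mutants on the arginine-free diet (-R) and their 3 libraries on the full Yaa diet, which is 6 of the 24 RNA-seq libraries of the series. They were taken by genotype and diet from the labels, with no use of measured values. All flies were once mated females, and each library held poly(A)-selected RNA from the heads and thoraces of 25 flies, with 3 biological replicates per group. Yaa is a chemically defined diet whose amino acid composition follows that of yeast, and -R is the same diet with arginine left out. In the mutants, which carry the Gcn2 1 allele, the complete open reading frame of Gcn2 is replaced by a white marker gene. The deletion comes from 1 null line made by homologous recombination, and Gcn2 is missing from the whole fly at all stages, so a response of adult tissue and one that follows from development without the kinase cannot be told apart. The control wDah flies on the same diets (6 libraries) were used only where the mutants were compared with them. The general methods of the study place young adults on the experimental diets, collected within a day of emergence and mated for about 2 days, and no age is given for the RNA-seq flies themselves.

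Gcn2 is a kinase that binds uncharged tRNA, which builds up when an amino acid runs short, and then phosphorylates the translation initiation factor eIF2alpha. This lowers general translation and favours translation of the transcription factor ATF4, which flies encode in the gene crc and which raises genes of amino acid synthesis, tRNA charging and redox defence. Arginine is an essential amino acid for flies, and TORC1 is the other main sensor of amino acids, which drives ribosome production when they are plentiful. The kinase PEK phosphorylates the same eIF2alpha site when proteins misfold in the endoplasmic reticulum. The comparison asks what the transcriptome does without arginine when the Gcn2 branch cannot respond.

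The deposited values are normalized counts, that is, estimated counts divided by a size factor per library. All fold changes below are differences on the log2(normalized count + 1) scale, -R minus Yaa, with a standard error (SE), tested with limma, and adjusted p-values are those of Benjamini and Hochberg over all genes tested. Genes with an adjusted p under 0.05 were called. The normalized counts summed to 24.5 to 27.1 M per library, and the reads behind them were estimated at 25.4 to 28.4 M per library. Gcn2 itself (chromosome 3R from 31395660 to 31402013 in the BDGP6.54 annotation) held 193, 152 and 224 on Yaa and 126, 158 and 154 on -R. In the table of all 24 libraries it lay between 106 and 185 in the 12 mutant libraries and between 597 and 701 in the 12 wDah libraries, so each library had the level of its labelled genotype. The remaining counts may include reads from PNPase, whose exons overlap those of Gcn2.

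Ovary and germline transcripts were uneven among the replicates, although the tissue was labelled head and thorax. The summed normalized count of the ovary markers (genes of the egg coat and its follicle cells, 16 in the table and 12 tested) was 97.4, 6576 and 73.1 in the Yaa replicates and 215, 87.7 and 94.8 in the -R replicates. The 8 germline markers summed to 1217, 19431 and 1287 on Yaa and to 8951, 875 and 926 on -R. Yaa replicate 2 was thus high for both kinds of transcript, and -R replicate 1 for germline transcripts and, less so, for egg coat transcripts. The first principal component of the 6 libraries (47.5% of the variance) set these 2 libraries, called ovary-rich below, apart from the other 4, called ovary-poor, and the second (34.5%) separated the diets. None of the 12 ovary markers tested was called by limma, and none had an unadjusted p under 0.05. Only 3 of them were tested without both ovary-rich libraries. Genes that are high in 1 library of a group vary too much there to be called, so this result cannot show that ovary content was even. Each group holds 1 library so named, but the 2 are not alike. The ovary markers summed to 6576 in Yaa replicate 2 and to 215 in -R replicate 1, which stood out mainly by its germline markers. The main counts below are also given without both.

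**Figure D1:**
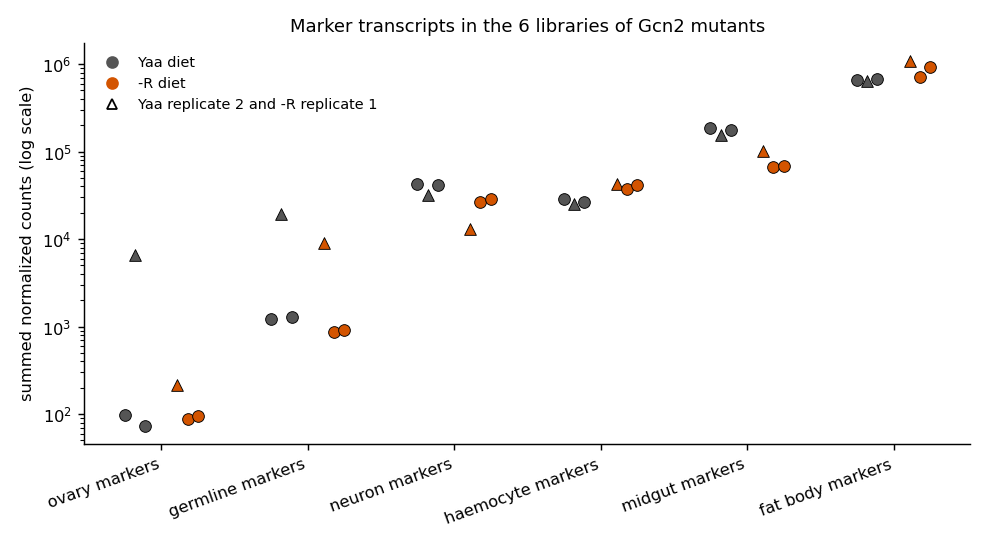
Summed normalized counts of 6 marker lists (log axis) in the 3 Yaa and 3 -R libraries of Gcn2 mutants, one point per library, with triangles for Yaa replicate 2 and -R replicate 1. The ovary markers reached 6576 in Yaa replicate 2 and the germline markers 8951 in -R replicate 1, while midgut markers were lower and haemocyte markers higher in all 3 -R libraries than in any Yaa library.

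The other marker lists bore on which tissues the libraries held, and in RNA from pooled flies fewer cells of a type cannot be told apart from less RNA per cell. Midgut markers summed to 187774, 156569 and 174463 on Yaa and to 101490, 65997 and 68780 on -R, with no overlap, and 5 of the 8 were lower (3 without any single ovary-poor library). Neuron markers summed to 42089, 31549 and 42011 on Yaa and to 13054, 26482 and 28367 on -R, also with no overlap, though none of the 6 was called by limma (4 were lower at an unadjusted p under 0.05). Fat body markers summed to 665597, 648648 and 672237 on Yaa and to 1087130, 704800 and 922619 on -R. Of the 7 tested, 1 was called higher and 1 lower (median 0.50). In wDah flies 6 of the 7 were higher (median 1.54). The interaction was called downward for 6, against 5.63% of all genes. Haemocyte markers summed to 28997, 25489 and 26749 on Yaa and to 42405, 37089 and 41972 on -R. Photoreceptor and flight muscle markers, which define head and thorax, were abundant in all 6 libraries and lower on -R. Photoreceptor markers summed to 467192, 334025 and 494536 on Yaa and to 322411, 287103 and 322388 on -R. Flight muscle markers summed to 275083, 229178 and 300893 on Yaa and to 196137, 225867 and 215645 on -R. Neither sum overlapped between the groups, by a small margin in each, with Yaa replicate 2 the lowest of its group, and 1 of 8 markers was called lower in each list. Of the male accessory gland and testis markers 1 was in the table, below the filter.

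Most genes called in the fit of all 6 libraries were higher on -R, a split that was nearly even without both ovary-rich libraries. Of 11297 genes and transposon copies tested, 2365 (20.9%) were called, with 1754 (15.5%) higher and 611 (5.41%) lower on -R. The rises were also larger: 795 of the genes that rose did so by over 2-fold and 245 by over 4-fold, against 132 and 44 of those that fell. Among called genes the median log2 fold change was 0.93 for those higher and -0.65 for those lower, where the median SE over all genes was 0.18. For all called genes the 3 -R libraries lay on one side of the 3 Yaa libraries, a state that 24.6% of all tested genes showed in the upward and 23.3% in the downward direction. By kind of gene, 1689 protein-coding genes rose and 579 fell, and 29 transposon copies rose and 18 fell.

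These counts depended on the libraries used. Without both ovary-rich libraries 6367 genes were called (29.3% higher and 28% lower). Without Yaa replicate 1 or 3 the count was 1103 or 1168, and without -R replicate 2 or 3 it was 1221 or 1340. Without Yaa replicate 2 it was 3300, and without -R replicate 1 it was 2494. Scaling all libraries to 1 common sum made the split 1536 higher to 1003 lower, and quantile normalization made it 1509 to 973. Below, a gene is said to have kept its call when it was called in all 6 fits that left out 1 library. List counts from the 6 libraries are to be read against 15.5% higher and 5.41% lower among all genes. Those without both ovary-rich libraries are to be read against 29.3% and 28%.

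**Figure D2:**
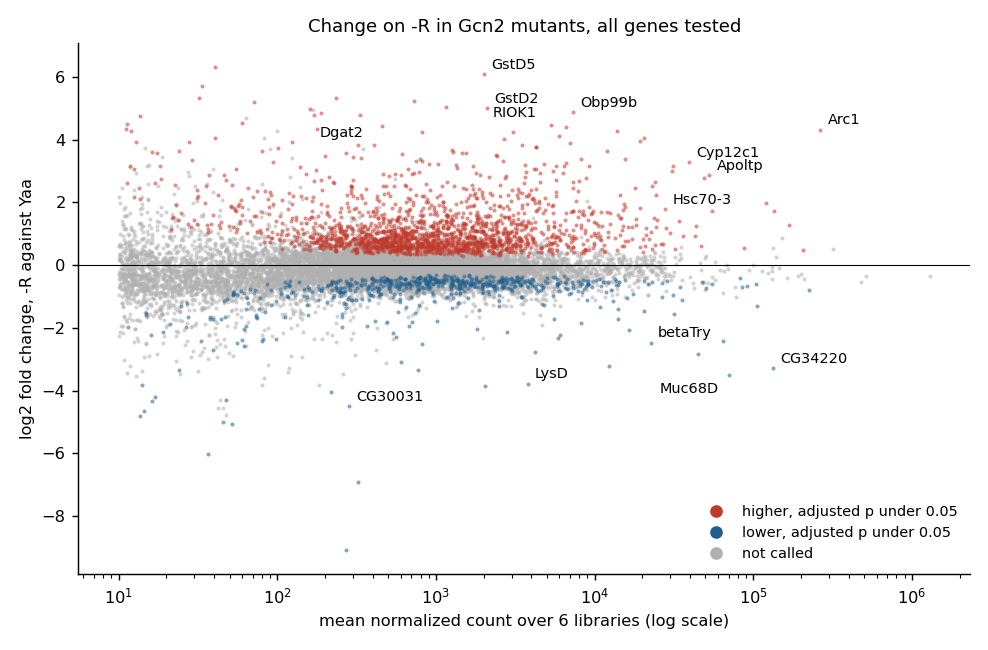
Log2 fold change of each of the 11297 genes and transposon copies tested (-R against Yaa, Gcn2 mutants) against its mean normalized count over the 6 libraries on a log axis, in red where called higher, blue where called lower and grey where not called. The 1754 red points reach further from 0 than most of the 611 blue points, with Arc1 the most abundant of the labelled risers and CG34220 and Muc68D the most abundant of the labelled fallers, and the lowest points are transposon copies.

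Glutathione S-transferases, which join glutathione to reactive compounds so that they can be cleared, included several genes with large rises. Of 35 tested, 22 were higher and 3 lower, with a median log2 fold change of 0.92 against -0.07 over all genes. Without both ovary-rich libraries 25 were higher and 4 lower. The 3 that were lower became 1 without any single ovary-poor library. GstD5 (chromosome 3R from 12375733 to 12376572) held 50.7, 58.7 and 61.4 on Yaa and 3945, 4026 and 3873 on -R (log2 fold change 6.10, SE 0.11, adjusted p = 9.87e-06). GstD2 held 186, 82.4 and 122 on Yaa and 3119, 5164 and 3898 on -R (log2 fold change 5.00, SE 0.33, adjusted p = 2.06e-04). GstD10 held 87.6, 60.6 and 96 on Yaa and 1291, 1806 and 1532 on -R (log2 fold change 4.24, SE 0.22, adjusted p = 9.36e-05). The groups did not overlap for any of these, and all kept their calls.

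These GstD genes lie side by side. GstD2 to GstD8 occupy chromosome 3R from 12371971 to 12380815, and all 7 were over 4-fold higher, with log2 fold changes from 2.02 (GstD3) to 6.10 (GstD5). GstD6 held only 2.07, 2.84 and 3.78 on Yaa and 133, 142 and 143 on -R (log2 fold change 5.20, SE 0.33, adjusted p = 1.89e-04), so its fold change on this scale understates the change. The members of the cluster are close paralogs, and kallisto may have split reads between them, so single values are less certain than their joint rise. The ubiquitous GstD1 rose by less (0.85, adjusted p = 0.0024), and GstE6 (2.28, adjusted p = 9.05e-05) and GstT1 (2.40, adjusted p = 4.61e-05) rose outside the cluster. GstT4 (-0.72, adjusted p = 0.0052), GstO2 (-0.59, adjusted p = 0.012) and GstE13 (-0.37, adjusted p = 0.0423) were the 3 that fell. In wDah flies GstD2 changed by -0.06 and GstD5 by 1.52, and the interaction of genotype and diet was 5.10 for GstD2 and 4.61 for GstD5.

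In other families that modify foreign and dietary compounds, part of the members rose. Among the ecdysteroid kinase-like genes, whose products are predicted to phosphorylate steroids and other small molecules, 20 of 41 tested were higher and none was lower (median 0.73). Without both ovary-rich libraries it was 23 higher and 8 lower. CG13659 held 317, 289 and 312 on Yaa and 5962, 5455 and 5979 on -R (log2 fold change 4.24, SE 0.09, adjusted p = 1.55e-05). Its neighbour CG31288 held 2403, 2089 and 2526 on Yaa and 35804, 37095 and 35466 on -R (log2 fold change 3.95, SE 0.10, adjusted p = 2.81e-05). The family member CG32195, which shares exon sequence with CG7341, held 1514, 1178 and 1383 on Yaa and 22295, 29153 and 27427 on -R (log2 fold change 4.27, SE 0.15, adjusted p = 3.22e-05). Each -R library lay far above each Yaa library for these, with replicates close together. In wDah flies the log2 fold change was -0.23 for CG13659, 0.16 for CG31288 and -0.21 for CG32195.

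Of 29 UDP-glycosyltransferases, which attach sugars to small lipophilic molecules, 12 were higher and 1 lower (median 0.52), and without both ovary-rich libraries 17 and 5 of 30, with 2 lower without -R replicate 1. Ugt37A3 held 1895, 2190.2 and 2992 on Yaa and 38156, 36454 and 41698 on -R (log2 fold change 4.06, SE 0.18, adjusted p = 7.02e-05), and it rose nearly as much in wDah flies (3.81, interaction 0.29, not called). Its neighbour Ugt37A2 held 92.1, 116 and 79.4 on Yaa and 1057, 1207 and 1114 on -R (log2 fold change 3.56, SE 0.16, adjusted p = 7.44e-05), with 0.24 in wDah flies. The 1 member that fell was Ugt37B1, with 88, 97.5 and 94.5 on Yaa and 28.6, 10.3 and 13.3 on -R (log2 fold change -2.48, SE 0.40, adjusted p = 0.00753).

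Of 74 cytochrome P450s, the oxidases of detoxification and hormone synthesis, 21 were higher and 5 lower (median 0.24). The share that rose (28.4%) was above the 15.5% of all genes, and the 5 that fell became 0 without Yaa replicate 1 or 3, 2 without -R replicate 2 and 1 without -R replicate 3. Without both ovary-rich libraries 32 were higher and 14 lower of 72. Cyp12c1, a mitochondrial P450, held 7794, 5624 and 8905 on Yaa and 78926, 70226 and 63820.5 on -R (log2 fold change 3.27, SE 0.19, adjusted p = 1.37e-04). Cyp6d4 held 554, 497 and 553 on Yaa and 4040.0, 3666 and 3636 on -R (log2 fold change 2.82, SE 0.10, adjusted p = 3.22e-05). Cyp6d2, whose exons overlap those of nsr, held 2295, 1692 and 2531 on Yaa and 13662, 14250.3 and 13181 on -R (log2 fold change 2.68, SE 0.16, adjusted p = 1.54e-04). Cyp309a2 (3.40, adjusted p = 1.16e-04) was called as well. All 4 were separate between the groups and kept their calls.

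**Figure D3:**
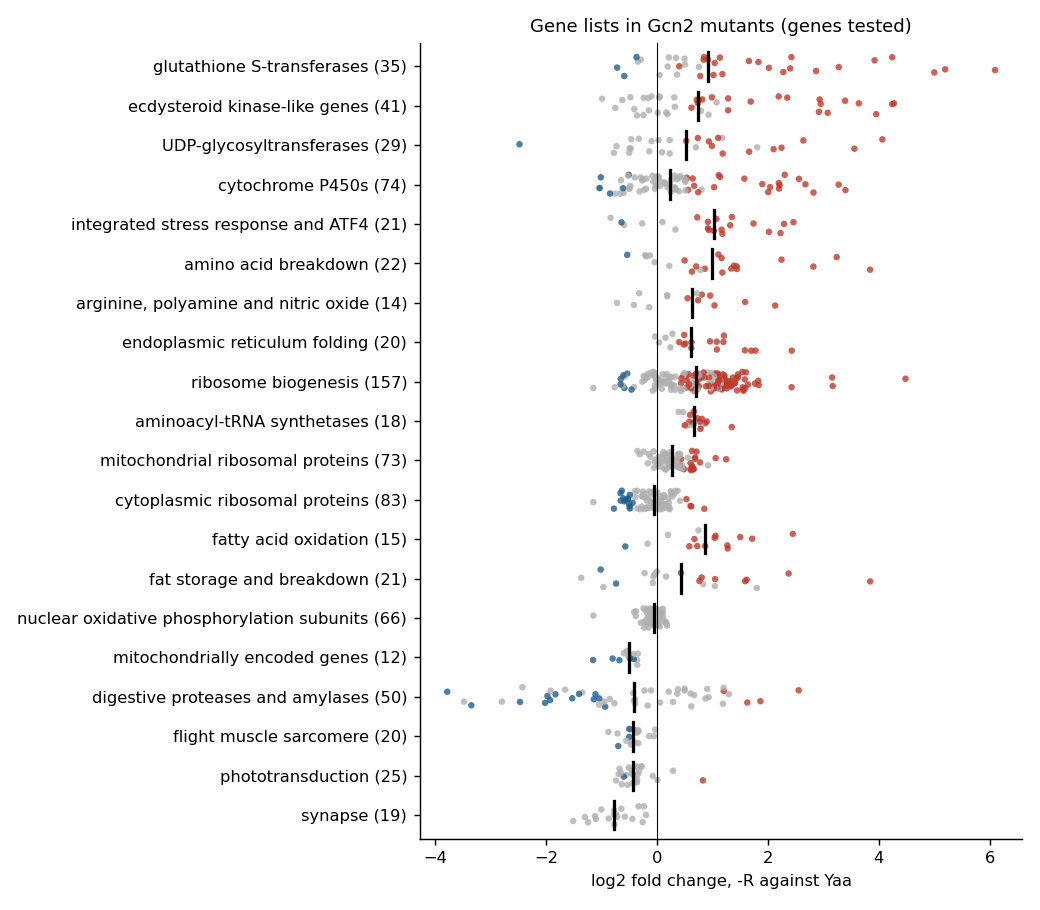
Log2 fold change (-R against Yaa, Gcn2 mutants) of every tested member of 20 gene lists, with the number tested in brackets, one point per gene, red where called higher, blue where called lower and grey where not called, and a black bar at the median of each list. Medians run from 1.02 for the integrated stress response list to -0.77 for the synapse list, and GstD5 is the rightmost point.

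Genes of oxidative stress defence changed by less. Of 29 tested, 12 were higher and 1 lower (median 0.28), and without both ovary-rich libraries 16 and 6. The 1 lower, the haem oxygenase gene Ho (-0.38), lost its call without any single ovary-poor library. The peroxiredoxin Jafrac2 held 199.8, 276 and 212 on Yaa and 528, 513 and 488 on -R (log2 fold change 1.16, SE 0.15, adjusted p = 0.00328). Gclc, which makes the first step of glutathione synthesis, rose by 0.42 (adjusted p = 0.0161). The genes that encode the regulators of this response, cnc (-0.05, adjusted p = 0.88) and Keap1 (-0.11, adjusted p = 0.599), did not pass the test. MsrA, which repairs oxidised methionine, held 1075, 878 and 1217 on Yaa and 2283, 2704 and 2828 on -R (log2 fold change 1.31, SE 0.15, adjusted p = 0.0022), a smaller rise than in wDah flies (3.47, interaction -2.13, adjusted p = 7.77e-06).

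Folding factors of the endoplasmic reticulum rose together. Of 20 tested, 15 were higher and none was lower (median 0.62), and without both ovary-rich libraries 17 and 0. Hsc70-3, the reticulum's Hsp70 chaperone, held 11234, 13517 and 12913 on Yaa and 34807, 49606 and 45495 on -R (log2 fold change 1.77, SE 0.16, adjusted p = 7.22e-04). The protein disulphide isomerase CaBP1 held 1234, 1432 and 1354 on Yaa and 6423, 8098 and 7196 on -R (log2 fold change 2.43, SE 0.12, adjusted p = 8.44e-05). Gp93, the reticulum's Hsp90, rose by 1.58 (adjusted p = 2.46e-04), and ERp60 by 1.70 (adjusted p = 2.20e-04). The transcripts of the sensors Ire1 (-0.04) and Atf6 (0.03) and of the transcription factor Xbp1 (0.24) were not called. The transcript of the kinase PEK, given below, was called higher. In wDah flies the values were 0.25 for Hsc70-3 and 0.54 for CaBP1, and the interaction was called for 12 of the 20 in the upward direction and for 1 in the downward direction, where 15.9% and 5.63% of all genes had such an interaction.

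Among heat shock genes 5 of 19 were higher and 2 lower (26.3% and 10.5%, against 15.5% and 5.41% of all genes), with a median of 0.30. Without Yaa replicate 2 it was 8 higher and 4 lower, and without both ovary-rich libraries 10 and 5. The 2 lower, l(2)efl (-0.76) and DnaJ-1 (-0.71), became 1 without any single ovary-poor library. Hsp23, a small heat shock protein, held 85.6, 232 and 111 on Yaa and 1226, 1871 and 972 on -R (log2 fold change 3.32, SE 0.41, adjusted p = 0.00274). The mitochondrial chaperonin Hsp60A held 4405, 5758 and 4863 on Yaa and 13585, 10815 and 10108 on -R (log2 fold change 1.20, SE 0.16, adjusted p = 0.00333). The inducible Hsp70Bb (1.60, adjusted p = 0.00359) and Hsp70Bc (1.50, adjusted p = 0.00107) were called, but the Hsp70 copies are nearly identical and reads may have been split between them. Hsp68 (-0.46) and Hsp83 (0.29) were not called.

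The integrated stress response list holds textbook targets and partners of ATF4. In these flies, which lack Gcn2, 15 of 21 were higher and 1 lower on -R (median 1.02), against 15.5% and 5.41% of all genes. Without both ovary-rich libraries it was 16 and 3. The transcript of ATF4 itself was level, with crc at 26044, 22295 and 26941 on Yaa and 25045, 27594 and 27767 on -R (log2 fold change 0.10, SE 0.11, adjusted p = 0.555). AsnS, which makes asparagine, held 575, 847 and 639.7 on Yaa and 3619.8, 3095 and 2860.0 on -R (log2 fold change 2.23, SE 0.17, adjusted p = 4.10e-04). Shmt, which links serine to one-carbon units, held 2198, 2348 and 2085 on Yaa and 16979, 10238 and 10305 on -R (log2 fold change 2.46, SE 0.21, adjusted p = 5.81e-04). Nmdmc, a mitochondrial enzyme of the same pathway, held 437, 415 and 455 on Yaa and 2162, 1875 and 1356 on -R (log2 fold change 2.02, SE 0.18, adjusted p = 7.04e-04). Each of the 3 enzyme genes was above Yaa in all -R libraries. The serine synthesis genes CG6287 (1.74), CG11899 (0.93) and aay (1.32) also rose.

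Some of these genes changed by a like amount in the control flies and others did not. In wDah flies the log2 fold change was 2.75 for Shmt (interaction -0.25, not called) and 2.00 for Nmdmc, and 1.33 for AsnS (interaction 0.94, adjusted p = 0.03). The pseudokinase gene trbl held 748, 739 and 730.4 on Yaa and 3637, 4064 and 3199 on -R (log2 fold change 2.29, SE 0.11, adjusted p = 8.44e-05) in the mutants and changed by 0.21 in wDah flies (interaction 2.12, adjusted p = 9.43e-07). Xrp1, a stress-induced bZIP factor, held 21493, 16247 and 20249 on Yaa and 25829, 49297 and 46453 on -R (log2 fold change 1.02, SE 0.27, adjusted p = 0.0413). Its partner Irbp18 rose by 0.92 (adjusted p = 0.00773). The kinase gene PEK held 1452, 1736 and 1429 on Yaa and 2165, 2595 and 2888 on -R (log2 fold change 0.72, SE 0.14, adjusted p = 0.0161). Its substrate gene eIF2alpha held 1691, 2035 and 1770.2 on Yaa and 4205, 3928 and 3414 on -R (log2 fold change 1.07, SE 0.12, adjusted p = 0.00201). Thor, the translational repressor 4E-BP and a target of both ATF4 and FOXO, held 17214, 10139 and 14362 on Yaa and 4691, 10076 and 9237 on -R, with overlapping groups (log2 fold change -0.84, SE 0.34, adjusted p = 0.121). Sesn, an inhibitor of TORC1, was the 1 member lower (-0.64, adjusted p = 0.0365), and its call was lost in 5 of the 6 fits that left out a library.

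Several genes of arginine metabolism rose. Of 14 genes of arginine, polyamine and nitric oxide metabolism 7 were higher and none was lower (median 0.63), against 15.5% and 5.41% of all genes. Without both ovary-rich libraries it was 8 and 2. The arginase gene arg, whose exons overlap those of elav, held 109, 123 and 117 on Yaa and 621, 490.1 and 440.3 on -R (log2 fold change 2.13, SE 0.16, adjusted p = 3.72e-04). Argl, an argininosuccinate lyase gene, held 907, 857 and 882 on Yaa and 3563, 2153 and 2429.8 on -R (log2 fold change 1.59, SE 0.19, adjusted p = 0.00243). Oat, which takes ornithine on towards proline, held 422, 515 and 438 on Yaa and 1303, 719 and 879 on -R (log2 fold change 1.04, SE 0.23, adjusted p = 0.0231), a call that was lost without Yaa replicate 1, Yaa replicate 3 or -R replicate 3. The groups did not overlap for these genes. ArgRS, which charges tRNA with arginine, held 622, 789 and 669.9 on Yaa and 1145, 1283 and 1201 on -R (log2 fold change 0.81, SE 0.12, adjusted p = 0.00609). In wDah flies the log2 fold changes were 1.57 for arg, 0.58 for Argl, 1.16 for Oat and 0.05 for ArgRS. The arginine transporter gene slif was not called (-0.42), nor was Nos, which makes nitric oxide from arginine (-0.32).

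Of 22 genes of amino acid breakdown, 15 were higher and 1 lower (median 0.98), and without both ovary-rich libraries 16 and 2. In wDah flies 15 of the same 22 were higher and 1 lower, with a median of 0.49, where 13.8% of all genes were higher and 8.54% lower. Sardh, the sarcosine dehydrogenase, held 205, 168 and 136 on Yaa and 2168, 1385 and 1331 on -R (log2 fold change 3.24, SE 0.24, adjusted p = 3.43e-04), with no overlap. Gnmt, which methylates glycine to sarcosine and so uses up methyl groups, held 34.1, 41.7 and 36.8 on Yaa and 582, 309.6 and 923 on -R (log2 fold change 3.84, SE 0.39, adjusted p = 0.00112), with -1.27 in wDah flies and an interaction of 5.15. The xanthine dehydrogenase ry, in this list although it acts on purines, held 933, 858 and 897 on Yaa and 7590.3, 5979.8 and 5564 on -R (log2 fold change 2.82, SE 0.14, adjusted p = 8.28e-05). The gene hgo, of tyrosine breakdown, held 754, 475 and 618 on Yaa and 2985, 3187 and 2483 on -R (log2 fold change 2.24, SE 0.19, adjusted p = 5.93e-04). The member that fell was Sam-S (-0.54, adjusted p = 0.00915), which makes the methyl donor S-adenosylmethionine. Amino acid transporters showed no such shift, with 4 of 20 higher and 1 lower (median -0.06), close to the shares of all genes. Without any single ovary-poor library 1 or 2 were higher, and without both ovary-rich libraries 5 were higher and 9 lower.

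Many genes that build ribosomes rose in the mutants on -R. Of 157 genes annotated to ribosome biogenesis, 73 were higher and 6 lower (46.5% and 3.82%, against 15.5% and 5.41% of all genes), with a median of 0.70. RIOK1, a kinase of the last steps of small subunit maturation, held 433, 531 and 401 on Yaa and 8942, 10688 and 10783 on -R (log2 fold change 4.48, SE 0.14, adjusted p = 3.22e-05). The assembly factor eIF6, which keeps the large subunit from joining too early, held 1253, 1171 and 1433 on Yaa and 13512, 10325 and 10698 on -R (log2 fold change 3.16, SE 0.14, adjusted p = 7.02e-05). For both, the -R libraries were all far above the Yaa libraries. CG5800, a predicted RNA helicase gene, held 294, 491 and 277 on Yaa and 3432, 3035 and 2804 on -R (log2 fold change 3.17, SE 0.23, adjusted p = 3.30e-04). Fib, the methyltransferase of the nucleolus, rose by 1.54 (adjusted p = 0.0317), and nop5, its partner, by 1.55 (adjusted p = 0.0236).

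The size of this count rested on the libraries, although its direction did not. It was 105 higher and 17 lower without both ovary-rich libraries, and 30, 32, 35 and 40 higher without Yaa replicate 1, Yaa replicate 3, -R replicate 2 and -R replicate 3. The 6 that fell became 2 without any single ovary-poor library and 10 without -R replicate 1, and 4 of them, RpS14a, RpS14b, RpL23A and RpL34b, encode ribosomal proteins. In wDah flies none of the 157 was higher and 48 were lower (median -0.18). The interaction was called for 100 of the 157 in the upward and for 2 in the downward direction, against 15.9% and 5.63% of all genes.

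Ribosomal proteins of the cytoplasm did not follow. Of 83 tested, 4 were higher and 14 lower in the mutants (median -0.06). The count lower was 29 without -R replicate 1 and 4 without any single ovary-poor library, so it rested on which libraries were used, and without both ovary-rich libraries it was 37, with 9 higher. The median turned slightly positive (up to 0.02) in some alternatives. RpL22 held 15994, 15494 and 16351 on Yaa and 10191, 9191 and 8547 on -R (log2 fold change -0.78, SE 0.10, adjusted p = 0.00312). The 4 that rose were led by RpS27, with 9458, 9840.3 and 9303 on Yaa and 18496, 16494 and 16681 on -R (log2 fold change 0.85, SE 0.09, adjusted p = 0.00157), and became 1 without Yaa replicate 1 and 2 without Yaa replicate 3 or -R replicate 2. In wDah flies 81 of the 83 were lower and none was higher (median -0.34), and the interaction was called upward for 32 and downward for 3, with 1.24 for RpS27.

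Aminoacyl-tRNA synthetases, which charge tRNAs and are targets of ATF4 in mammals, were above Yaa in all 3 -R libraries for all 18 genes. This held for 24.6% of all genes. Of the 18, 12 were called higher and none lower (median 0.67), against 15.5% and 5.41% of all genes. The 12 became 6 without Yaa replicate 1 or 3 and 18 without both ovary-rich libraries. SerRS held 1052, 1344 and 1096 on Yaa and 3464, 2900.2 and 2539 on -R (log2 fold change 1.35, SE 0.16, adjusted p = 0.00208). TrpRS held 536, 665 and 569.8 on Yaa and 1178, 1091 and 1021 on -R (log2 fold change 0.90, SE 0.12, adjusted p = 0.00391). In wDah flies the median was 0.05, and the interaction was called upward for 15. Among translation factors 9 of 44 were higher and none lower (median 0.23), with 4 higher without any single ovary-poor library and 25 higher and 4 lower without both ovary-rich libraries. Of 73 mitochondrial ribosomal proteins 17 were higher and none lower (median 0.27), with 5, 8 and 7 higher without Yaa replicate 1, Yaa replicate 3 and -R replicate 2, and 36 higher and 3 lower without both ovary-rich libraries. Of 32 proteasome subunits 8 were higher and none lower (median 0.43), with 2 without Yaa replicate 1 or 3, 3 without -R replicate 2 and 5 without -R replicate 1, and 20 higher and 1 lower without both ovary-rich libraries. Of 19 TORC1 pathway genes 2 were higher (Lst8 and RagA-B) and 3 lower (Rheb, Sesn and REPTOR-BP), with a median of -0.07. The 3 became 0 without any single ovary-poor library, and the 2 became 4 without Yaa replicate 2, 0 without Yaa replicate 3, 1 without any other ovary-poor library, and without both ovary-rich libraries 6 were higher and 6 lower.

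**Figure D4:**
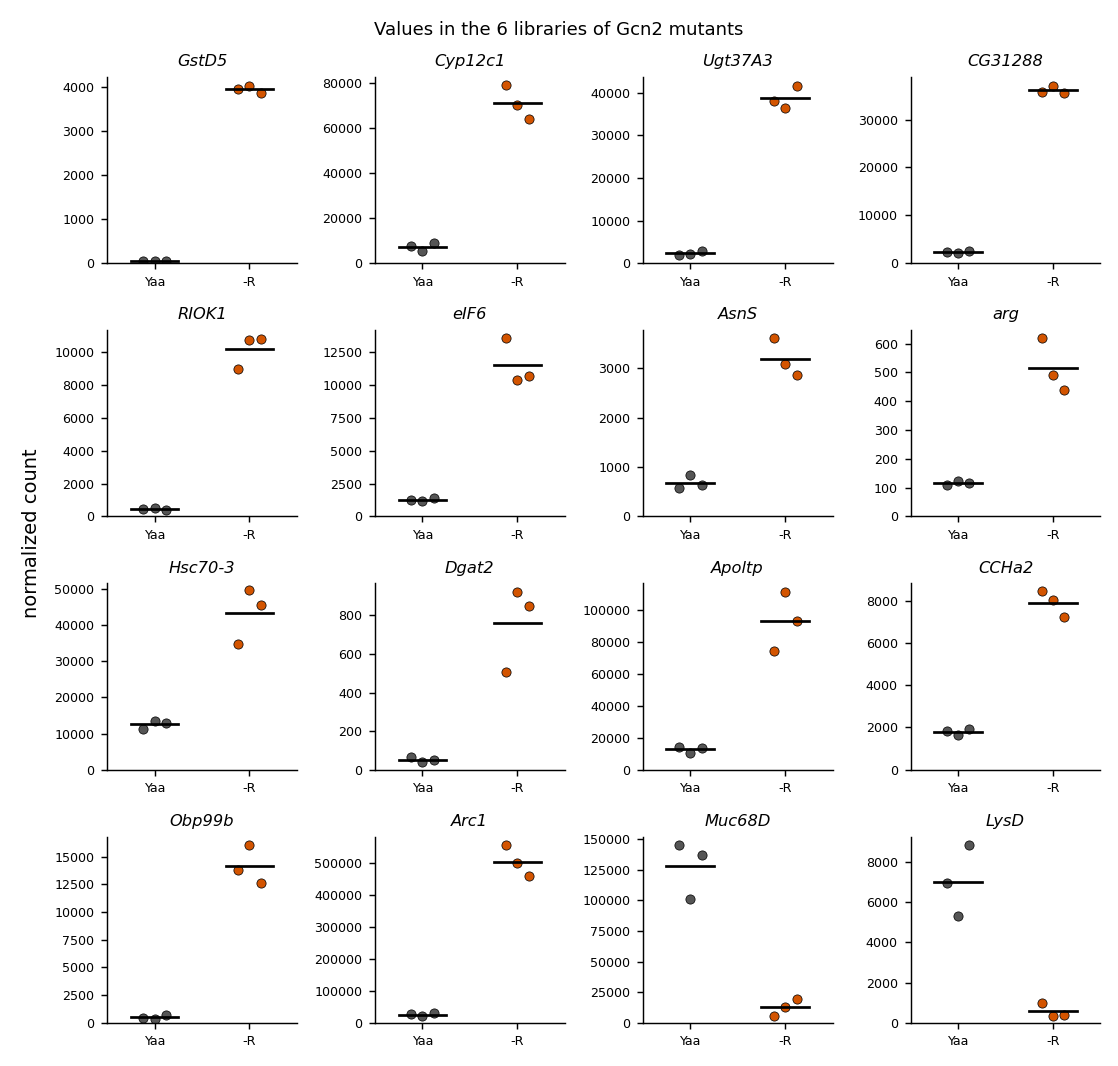
Normalized counts (linear axes from 0) of 16 genes in the 6 libraries of Gcn2 mutants, one point per library and a bar at the mean of each group. Of these genes 14 were higher in all 3 -R libraries than in any Yaa library, and Muc68D and LysD were lower in all 3.

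Fat metabolism shifted at several steps. Of 15 genes of fatty acid oxidation 11 were higher and 1 lower (median 0.87), and without both ovary-rich libraries 12 and 1. The 1 that fell, Acox57D-p (-0.57), kept its call only without -R replicate 1. The thiolase yip2 held 5922, 5258 and 5509.5 on Yaa and 32773, 30166 and 28238 on -R (log2 fold change 2.45, SE 0.10, adjusted p = 6.05e-05). Mtpalpha, of the mitochondrial trifunctional protein, held 4594, 4574 and 4394 on Yaa and 16173, 15605 and 12943 on -R (log2 fold change 1.71, SE 0.11, adjusted p = 2.09e-04). The carnitine palmitoyltransferase whd, which admits fatty acids to mitochondria, rose by 1.04 (adjusted p = 0.00249). In wDah flies 10 of the 15 were higher, with a median of 0.23.

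In the list of fat storage and breakdown, 8 of 21 were higher and 2 lower (median 0.43), with 4 higher without -R replicate 2 or 3, 5 without Yaa replicate 1 or 3, with 1 lower without any of these 4, and 9 higher and 7 lower of 19 without both ovary-rich libraries. Dgat2, which makes triacylglycerol, held 65.2, 37.9 and 51 on Yaa and 505, 921 and 848 on -R (log2 fold change 3.84, SE 0.30, adjusted p = 4.10e-04). The other such enzyme, mdy, held 1100.2, 948 and 1132 on Yaa and 3082, 3306 and 3148 on -R (log2 fold change 1.59, SE 0.10, adjusted p = 2.09e-04). Neither showed overlap between the groups. The lipase gene CG5966 held 3437, 1677 and 2757 on Yaa and 13642, 13442 and 12031 on -R (log2 fold change 2.37, SE 0.26, adjusted p = 0.0016). The lipid droplet protein Lsd-1 held 4447, 3196 and 4529 on Yaa and 9404, 15429.7 and 12782 on -R (log2 fold change 1.62, SE 0.22, adjusted p = 0.00417). Fatty acid synthase FASN1 moved the other way, with 32252, 34855 and 39597 on Yaa and 18999.9, 15153 and 18615 on -R (log2 fold change -1.02, SE 0.14, adjusted p = 0.00359), as did the desaturase Desat1 (-0.74, adjusted p = 0.0136), whose call was lost without any single ovary-poor library. In wDah flies FASN1 changed by 0.37 (interaction -1.34, adjusted p = 8.33e-05) and Dgat2 by -0.04 (interaction 3.92, adjusted p = 1.65e-04).

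Lipid carriers and their receptors moved apart. Apoltp, the lipid transfer particle of the haemolymph, held 14070.5, 10568 and 13535 on Yaa and 74729, 111863 and 93391 on -R (log2 fold change 2.87, SE 0.19, adjusted p = 2.09e-04). Mtp, which loads lipoproteins, held 1452, 1543 and 1424 on Yaa and 3753, 3797 and 3693 on -R (log2 fold change 1.35, SE 0.08, adjusted p = 1.77e-04). The lipoprotein receptor genes LpR2 (-1.01, adjusted p = 0.0112) and LpR1 (-0.71, adjusted p = 0.0186) fell, the latter losing its call without any single ovary-poor library. The main lipoprotein gene apolpp was not called in the mutants (-0.10), where its change in wDah flies was 1.26. For Apoltp the change in wDah flies was 0.57 (interaction 2.34, adjusted p = 1.50e-05). Of the larval serum and yolk protein genes 1 of 7 was called, 3 without -R replicate 2. It was Lsp2, with 237, 578 and 353 on Yaa and 15635, 1337 and 21689.8 on -R (log2 fold change 4.39, SE 1.04, adjusted p = 0.0301). Its -R replicates were far apart, with -R replicate 2 low. Its call was lost without Yaa replicate 1, Yaa replicate 3, -R replicate 1 or -R replicate 3 (adjusted p up to 0.112), and in wDah flies it rose by 4.86.

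Gut transcripts were among the largest falls. In the list of digestive proteases, amylases, lysozymes and mannosidases, 13 of 50 were lower and 4 higher in the mutants (median -0.41), and without both ovary-rich libraries 24 and 4 of 36. The members tested only among the 50 passed the filter through those 2 libraries. Against the Yaa mean, the median log2 value of the list was 0.61 in -R replicate 1. In -R replicates 2 and 3 it was -1.64 and -1.52. The count lower was 20 without -R replicate 1. In wDah flies 27 of 38 were higher and 1 lower (median 1.17), and the interaction was called downward for 22 of 38 and upward for 3. The median of the list turned positive (up to 0.21) in some alternatives, so its counts and single genes are given rather than a direction of the list.

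CG30031, a trypsin-like protease gene (chromosome 2R from 11350811 to 11351621), held 532, 399.6 and 704 on Yaa and 33.7, 20.6 and 16.4 on -R (log2 fold change -4.50, SE 0.33, adjusted p = 3.23e-04). In wDah flies it rose by 3.52, so the interaction was -7.97, the most negative of all named genes. The genotypes already differed on the full diet. With all 24 libraries normalized together, the mean of CG30031 on Yaa was 46.1 in wDah flies and 454 in the mutants. On -R it was 534 in wDah flies and 20.2 in the mutants. Its neighbour betaTry held 41919.6, 35998 and 36646 on Yaa and 9559.6, 5636 and 6007 on -R (log2 fold change -2.47, SE 0.21, adjusted p = 6.07e-04), and in wDah flies its change was 0.01. The digestive lysozyme LysD held 6932, 5304 and 8821 on Yaa and 973, 316 and 400.4 on -R (log2 fold change -3.79, SE 0.43, adjusted p = 0.00195), with 1.43 in wDah flies. LysB held 1411, 1061 and 1729 on Yaa and 233, 105 and 97.3 on -R (log2 fold change -3.35, SE 0.37, adjusted p = 0.00164), with 1.24 in wDah flies. In none of these genes did the groups overlap. LysD shares exon sequence with LysC and these paralogs may exchange reads. The amylase gene Amy-p held 56859, 38007 and 50224 on Yaa and 28417, 18468 and 20496 on -R (log2 fold change -1.11, SE 0.22, adjusted p = 0.0156), a call lost without any single ovary-poor library, and rose by 1.20 in wDah flies (interaction -2.28, adjusted p = 5.47e-05).

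Other abundant genes, several of them known from the gut, fell alongside. The mucin Muc68D (chromosome 3L from 11767299 to 11772157) held 144913, 101163 and 136711 on Yaa and 5503, 12721 and 19477 on -R (log2 fold change -3.51, SE 0.45, adjusted p = 0.0031). CG12374, a carboxypeptidase gene, held 73576, 74054 and 87995 on Yaa and 11766, 9942 and 11212 on -R (log2 fold change -2.84, SE 0.12, adjusted p = 6.54e-05). CG17192, a predicted lipase gene, held 1793, 978 and 1426 on Yaa and 279, 285 and 172 on -R (log2 fold change -2.50, SE 0.29, adjusted p = 0.00206). CG34220, one of the most abundant transcripts that fell, held 269108, 210798 and 241204 on Yaa and 29963, 14464 and 33967 on -R (log2 fold change -3.29, SE 0.33, adjusted p = 0.00109). For all of these the -R libraries lay below every Yaa library. The summed midgut markers given above were lower in the same libraries, and their part in these values was not tested.

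The 4 members of the digestive list that rose were the mannosidases LManI (2.55, adjusted p = 9.66e-05) and LManII (1.86, adjusted p = 8.28e-05), the trypsin etaTry (1.63, adjusted p = 0.0144) and the maltase Mal-B2 (1.20, adjusted p = 0.0039). LManI held 496, 502 and 461 on Yaa and 2462, 3323 and 2851 on -R. The remaining large falls were CG43673 (-3.86, adjusted p = 4.27e-04), CG33109 (-2.78, adjusted p = 5.18e-04), CG34324 (-2.43, adjusted p = 7.72e-04), CG31077 (-2.32, adjusted p = 9.90e-04), CG44142 (-2.28, adjusted p = 0.00106) and asRNA:CR44106 (-4.06, adjusted p = 0.00112), to which no role is given here. Root, which encodes the ciliary rootlet protein and overlaps GatB, held 1049, 962 and 1244 on Yaa and 135, 135 and 110.3 on -R (log2 fold change -3.09, SE 0.15, adjusted p = 8.44e-05).

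A few peptide genes among fat body signals rose, a smaller share of their list than of all genes. CCHa2, a nutrient-dependent peptide that acts on insulin-producing cells, held 1806, 1660.2 and 1919 on Yaa and 8476, 8051 and 7214 on -R (log2 fold change 2.14, SE 0.11, adjusted p = 8.52e-05), with 0.17 in wDah flies (interaction 2.01, adjusted p = 2.60e-06). The growth-blocking peptide gene Gbp2 held 4239, 3597 and 4182 on Yaa and 14579.9, 14714 and 14007 on -R (log2 fold change 1.85, SE 0.10, adjusted p = 1.08e-04). The satiety signal fit held 2522, 1740.4 and 2096 on Yaa and 4323, 3930.4 and 4518 on -R (log2 fold change 1.02, SE 0.15, adjusted p = 0.00582), a smaller rise than in wDah flies (3.34, interaction -2.28, adjusted p = 1.22e-04). In this list of 26, 3 were higher and 3 lower (11.5% each, against 15.5% and 5.41% of all genes), with a median of -0.44. The count lower was 12 without Yaa replicate 2, 1 without -R replicate 1 or 3, and 0 without Yaa replicate 1, Yaa replicate 3 or -R replicate 2. Without both ovary-rich libraries 5 were higher and 14 lower. The neuropeptide genes Lk (-0.82), AstC (-0.76) and Capa (-0.67) were the 3 that fell. The neuron markers given above were lower in the same libraries, and their part in these values was not tested. Of 16 insulin pathway genes 1 was lower, Pdk1 (-0.50), which lost its call without Yaa replicate 1, Yaa replicate 3 or -R replicate 3, with 4 lower without -R replicate 1, 2 without Yaa replicate 2, and 3 higher and 9 lower without both ovary-rich libraries.

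Part of the stress-induced secreted proteins and most of the haemocyte genes tested were higher. Among the Turandot genes, which stress induces through JAK-STAT signalling, TotA held 1487, 1635 and 1439 on Yaa and 8474, 11692 and 9725 on -R (log2 fold change 2.70, SE 0.14, adjusted p = 9.59e-05). TotC held 361, 537 and 488 on Yaa and 2297, 2772 and 2491 on -R (log2 fold change 2.46, SE 0.17, adjusted p = 2.62e-04). The cytokine gene upd3 held only 15.5, 3.79 and 13.2 on Yaa and 44, 62.9 and 72.7 on -R (log2 fold change 2.52, SE 0.55, adjusted p = 0.0228), and lost its call without Yaa replicate 3, -R replicate 2 or -R replicate 3. In the list of JAK-STAT and Turandot genes 6 of 10 were higher and none lower, with 3 higher without -R replicate 2 or 3 and 7 higher and 1 lower without both ovary-rich libraries. Of 22 antimicrobial peptide genes 8 were higher and 1 lower (median 0.34), with 5 higher without Yaa replicate 1 or -R replicate 3. Without both ovary-rich libraries 9 were higher and 5 lower of 23, where 29.3% and 28% of all genes were. AttC, the gene of an attacin, held 166, 129 and 128 on Yaa and 1070.3, 1485 and 1015 on -R (log2 fold change 3.06, SE 0.19, adjusted p = 1.77e-04). Mtk, another peptide gene of this response, was the 1 lower, with 354, 176 and 180.5 on Yaa and 77.7, 61.9 and 81.9 on -R (log2 fold change -1.60, SE 0.31, adjusted p = 0.0143), a call lost without -R replicate 2.

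Of the 8 haemocyte markers 6 were higher and none lower (median 0.62), with 3 higher without Yaa replicate 3 and all 8 without both ovary-rich libraries. The prophenoloxidase PPO2, of crystal cells, held 3206, 2806 and 2749 on Yaa and 5162, 5026 and 5703 on -R (log2 fold change 0.86, SE 0.10, adjusted p = 0.00251). NimC1, of plasmatocytes, held 1342, 1082 and 1318 on Yaa and 2001, 1905 and 2087 on -R (log2 fold change 0.68, SE 0.12, adjusted p = 0.00927). In wDah flies 6 of the 8 were also higher, with a median of 0.50, and the interaction was called for 3.

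Genes of neurons, eyes, muscle and mitochondrial DNA had negative medians, and how many were called differed between the lists. None of 19 synapse genes was called by limma (8 were lower at an unadjusted p under 0.05), although the median was -0.77. For 15 of them all 3 -R libraries lay below all 3 Yaa libraries, as for 23.3% of all genes. Without both ovary-rich libraries 16 of 19 were lower, against 28% of all genes. The sodium channel gene para, the lowest of them, held 5383, 3749.8 and 5065 on Yaa and 399, 3163 and 3471 on -R (log2 fold change -1.51, SE 0.82, adjusted p = 0.216). In -R replicate 1 it lay below the other -R replicates, as the summed neuron markers did. Of 25 phototransduction genes 1 was lower and 1 higher (median -0.44), with 12 lower without Yaa replicate 2, 2 without -R replicate 1, 0 without any single ovary-poor library and 21 without both ovary-rich libraries. The one that rose was santa-maria, a scavenger receptor for carotenoids (0.83, adjusted p = 0.00825). Of 20 flight muscle genes 3 were lower (median -0.44), 13 without Yaa replicate 2, 0 without any other single library and 17 without both ovary-rich libraries. Act57B, an actin gene, held 44264, 32391 and 53500.3 on Yaa and 25206, 26688 and 26578 on -R (log2 fold change -0.70, SE 0.19, adjusted p = 0.0447). The summed neuron, photoreceptor and flight muscle markers given above were lower in the same libraries, and their part in these values was not tested.

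Of the 12 genes of mitochondrial DNA 5 were lower and none higher (median -0.51), but without Yaa replicate 2 there were 8, without -R replicate 1 there were 3, without any single ovary-poor library there were 0, and without both ovary-rich libraries 10. The gene mt:ATPase6 held 310342, 239142 and 309262 on Yaa and 160218, 166612 and 162325 on -R (log2 fold change -0.80, SE 0.15, adjusted p = 0.0119). Its exons overlap those of its neighbours, and poly(A) selection sets how much mitochondrial RNA is sampled. None of 66 nuclear subunits of oxidative phosphorylation was called by limma (5 were lower at an unadjusted p under 0.05, and 28 were called lower without both ovary-rich libraries), with a median of -0.06. In wDah flies 37 of 66 were higher and 1 lower, with a median of 0.12. The interaction was called upward for 0 and downward for 2 of the 66, against 15.9% and 5.63% of all genes. Of 17 TCA cycle genes ScsbetaA (0.51) was higher and Idh3a (-0.55) lower, both calls lost without any single ovary-poor library. Without Yaa replicate 2 there were 5 lower, and without both ovary-rich libraries 2 were higher and 9 lower. Of 13 glycolysis genes 1 was higher, Ldh, with 384, 425 and 347 on Yaa and 705, 698 and 777 on -R (log2 fold change 0.92, SE 0.12, adjusted p = 0.00327), and without both ovary-rich libraries 2 were higher and 7 lower.

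Other large rises came from genes outside these groups. Obp99b, a secreted odorant-binding protein, held 471, 343 and 669.9 on Yaa and 13785, 16038 and 12657 on -R (log2 fold change 4.88, SE 0.25, adjusted p = 9.05e-05), while in wDah flies it changed by -0.98 (interaction 5.90, adjusted p = 2.08e-05). It led 7 of 26 odorant-binding protein genes that were higher (none lower), which were 4 without Yaa replicate 1 or -R replicate 3. Without both ovary-rich libraries 8 were higher and 5 lower, where 29.3% and 28% of all genes were, so the share higher was near that of all genes. Arc1 (chromosome 2R from 14357927 to 14360297), a gene of retrotransposon origin whose protein forms capsids that carry its own RNA, held 26361, 19895 and 30751 on Yaa and 556653, 499935 and 458768 on -R (log2 fold change 4.32, SE 0.19, adjusted p = 6.54e-05), the highest level on -R of any gene named here. The neighbouring paralog Arc2 held 397, 342 and 420.5 on Yaa and 4449, 4556 and 4149 on -R (log2 fold change 3.50, SE 0.11, adjusted p = 3.22e-05). For both, every -R library was far above every Yaa library.

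The trehalose transporter genes Tret1-2 and Tret1-1 lie side by side on chromosome 2R. Tret1-2 held 11.4, 22.7 and 15.1 on Yaa and 331, 333 and 360.4 on -R (log2 fold change 4.35, SE 0.27, adjusted p = 1.75e-04). Tret1-1 held 7362, 6177 and 7035 on Yaa and 22532, 24262 and 22854 on -R (log2 fold change 1.76, SE 0.10, adjusted p = 1.39e-04). The C-type lectin gene lectin-24A held 7.24, 16.1 and 5.67 on Yaa and 311, 403 and 228 on -R (log2 fold change 4.97, SE 0.42, adjusted p = 5.52e-04), and also rose in wDah flies (2.72). CG8620 held 38.2, 25.4 and 48.3 on Yaa and 1101, 1525 and 1648 on -R (log2 fold change 5.24, SE 0.27, adjusted p = 9.83e-05), with -1.27 in wDah flies and an interaction of 6.55, the most positive of all named genes. The other genes of the 15 largest rises, CG42364, CG31380, CG45061, CG18581 and lncRNA:CR44138, had log2 fold changes of 5.32, 5.05, 4.80, 4.78 and 4.43, and no role is given for them here. Of the 30 genes with the largest rises and falls, 29 kept their calls with each library left out, Lsp2 being the exception.

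The control flies allowed a test of which changes differed between the genotypes. It rests on the diet labels as given, which, unlike the genotype labels, were not checked by the level of any gene. In wDah flies 2454 of 10966 genes were called on -R (22.4%), 1517 higher (13.8%) and 937 lower (8.54%). The median size among called genes was 0.33, against 0.84 in the mutants. The median SE over all genes was 0.07 in wDah flies and 0.18 in the mutants, so smaller changes could be called in wDah flies. No libraries are shared between these comparisons. Of 10777 genes tested in both, 585 were higher in both, which is 34.0% of the 1719 that rose in mutants and 38.7% of the 1512 that rose in wDah flies. Another 124 were lower in both, which is 20.4% of the 607 that fell in mutants and 13.2% of the 936 that fell in wDah flies. Genes called in opposite directions numbered 82 (higher in mutants, lower in wDah) and 74 (lower in mutants, higher in wDah).

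The difference itself was called for 2363 of 11001 genes (21.5%), 1744 (15.9%) with a more positive change in the mutants and 619 (5.63%) with a more negative one. Without both ovary-rich libraries it was called for 5516. Among the 164 named genes called in the mutants, 138 also had a called interaction. These genes were chosen by the size of their change, so this share is no estimate for other genes. The 5 most positive interactions were 6.55 for CG8620, 5.90 for Obp99b, 5.15 for Gnmt, 5.10 for GstD2 and 4.71 for lncRNA:CR44138. The 5 most negative were -7.97 for CG30031, -5.18 for LysD, -4.86 for the cuticle gene Lcp1, -4.67 for CG17192 and -4.54 for LysB. An interaction compares changes, and levels on Yaa could differ between the genotypes as well. The Yaa mean of Arc1 was 21379 in the mutants and 4754 in wDah flies, while that of betaTry was 31875 and 36889.

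**Figure D5:**
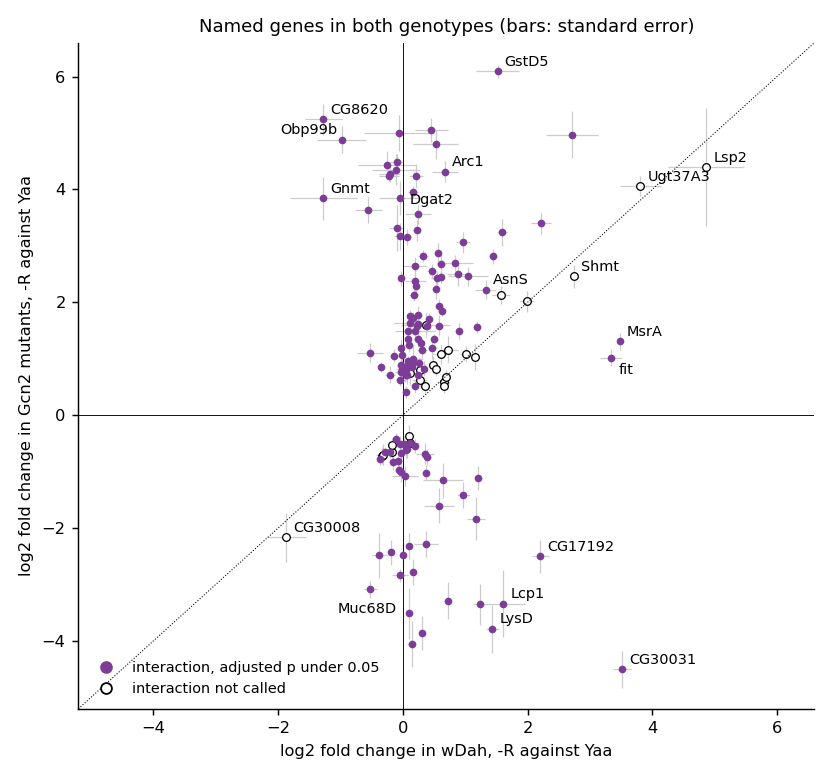
Log2 fold change on -R in Gcn2 mutants (y axis) against that in wDah flies (x axis) for the 161 named genes tested in both genotypes, with bars of 1 standard error and a dotted line where both are equal, filled where the interaction was called (135 genes) and open where it was not (26 genes). Most risers stand near 0 on the x axis, Ugt37A3, Shmt and Lsp2 lie by the dotted line, and CG30031, LysD and CG17192 rose in wDah flies and fell in mutants.

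The levels on the other diets, all from the table of 24 libraries, place the mutants on -R beside the rest. The mean normalized count of GstD5 was 3382 in mutants on -R, 50.5 in mutants without methionine (-M) and 89.5 in mutants without any amino acid (-All), with 11.1 to 61.6 in the 4 wDah groups. For RIOK1 it was 8819, 199.8 and 152 in the same order, and 156 to 188 in wDah flies. Muc68D stood at 10798 in mutants on -R, at 109885 on -M and at 112315 on -All. Lsp2 ran the other way, with 11024 in mutants on -R, 7939.7 on -M and 287963 on -All. These levels share their Yaa libraries and no difference between the deprivation diets was tested.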

How the data were processed

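Poly(A) libraries of head and thorax RNA were sequenced by the authors on an Illumina HiSeq, single-end, and quantified with kallisto 0.46.2 against BDGP6. For the deposited signal, called the normalized count here, the authors divided each gene's estimated count by its library's size factor from DESeq2 1.24.0 (R 3.6.3). Whether the libraries kept strand was not given in the sources used here, so reads of overlapping genes may not be told apart, and kallisto can split reads among near-identical paralogs. The deposited tables also hold the authors' own fold changes and p-values for each comparison, which were not used.

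Whole reads could not be recovered from the low values (88.2 to 89.1% were whole multiples of a step, within a tolerance of 0.1), so no count model was run. Genes whose normalized counts averaged 10 or more were tested on the log2(normalized count + 1) scale with limma 3.58.1 (R 4.3.3) with a mean-variance trend, and p-values were adjusted by Benjamini and Hochberg over all genes tested, with a threshold of 0.05. The 6 libraries were fitted in their own table, the interaction of genotype and diet in 12 libraries of the table of all 24, and wDah flies in their own table. The test was checked on simulated data. Figures were drawn with matplotlib 3.10.9 (Python 3.11.15). Coordinates and overlaps of exons are those of the BDGP6.54 annotation.

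The members and the 42 gene lists and 9 marker lists were chosen with earlier results of these data known. Named genes are Gcn2, the 15 largest rises and 15 largest falls among called genes with a mean of at least 100 and groups that do not overlap (transposon copies left out), up to 4 such genes of largest change per list, and among these the 5 most positive and 5 most negative interactions. Others were chosen after their values were seen, either as regulators or enzymes of a list or because their count was small, among them crc, Thor, PEK, Xrp1, the GstD and GstE genes beyond the first 4, para and Arc2. Alternatives changed the pseudocount, the filter, the scaling, the weights, the trend, the covariates, the table and the libraries. The p-values measure the spread between 3 pooled samples a group.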

Additional observations from a re-analysis of the deposited data

Results flagged for a closer look

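For 45 of the genes named above, chosen by their size, their place among the largest interactions or their role, the change on -R differed between the genotypes by the interaction term of the limma model (Benjamini-Hochberg adjusted p under 0.05 over 11001 genes, of which 21.5% passed). The interaction is the log2 fold change in Gcn2 mutants minus that in wDah flies, from the table of all 24 libraries. No explanation was tested for any of them.

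In 25 genes the change was more positive in the mutants. Among transporters, secreted and detoxification genes it was 5.90 for Obp99b, 5.10 for GstD2, 4.61 for GstD5, 4.52 for CG32195, 3.83 for CG31288, 3.09 for Cyp12c1, 4.48 for Tret1-2 and 2.26 for lectin-24A. Among genes of ribosomes, folding and the stress response it was 4.62 for RIOK1, 3.12 for eIF6, 1.24 for RpS27, 1.57 for Hsc70-3, 2.12 for trbl and 0.94 for AsnS. In metabolism and its signals it was 5.15 for Gnmt, 3.92 for Dgat2, 2.34 for Apoltp and 2.01 for CCHa2. For Arc1 it was 3.68. For the genes with no role given here it was 6.55 for CG8620, 4.71 for lncRNA:CR44138, 4.63 for CG18581, 4.63 for CG31380, 4.56 for CG42364 and 4.30 for CG45061.

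In the other 20 genes the change was more negative in the mutants. Among gut genes it was -7.97 for CG30031, -5.18 for LysD, -4.54 for LysB, -4.67 for CG17192, -3.57 for Muc68D, -2.75 for CG12374, -2.44 for betaTry and -2.28 for Amy-p. Among genes of the fat body and of repair it was -1.34 for FASN1, -2.28 for fit and -2.13 for MsrA, of which fit and MsrA rose in both genotypes. For the cuticle gene Lcp1 it was -4.86, and its log2 fold change in the mutants lost its call without Yaa replicate 1 (adjusted p = 0.0728). For the others it was -4.15 for asRNA:CR44106, -4.12 for CG43673, -3.96 for CG34220, -2.91 for CG33109, -2.61 for CG44142, -2.52 for Root, -2.38 for CG31077 and -2.20 for CG34324. The midgut markers summed lower on -R in the mutants, as given above, and their part in the values of the gut genes was not tested.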

How the results depend on the processing

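Of 2365 genes called (1754 higher and 611 lower), array weights gave 6713 (3386 and 3327), leaving out both ovary-rich libraries 6367 (3251 and 3116), the ovary score as a covariate 4128 (2481 and 1647) and all 24 libraries in 1 fit 5927 (3133 and 2794). With the replicate number as a block 1036 were called (922 and 114). The deviations of same-numbered libraries correlated by -0.54, -0.55 and 0.49, and not every library correlated best with its own number. The highest correlation, 0.66, was between the 2 ovary-rich libraries, which carry different numbers. These correlations therefore cannot decide whether the replicate numbers pair the libraries. Rescaling to the same total gave 1003 lower, with the median of all genes moving from -0.07 to -0.10, and quantile normalization 973 lower. Leaving out 1 library gave 1103 to 3300 called, 985 to 2171 higher and 118 to 1129 lower, the lowest without Yaa replicate 1 and the highest without Yaa replicate 2. The pseudocounts 0.5 and 10, the filters, the fit with no trend and the table of all 24 libraries kept the count within 1.5 times. Of 2363 interactions (1744 and 619), array weights gave 5688 (3228 and 2460), leaving out both ovary-rich libraries 5516 (3112 and 2404) and all 24 libraries 1321 more negative. Leaving out 1 library gave 1828 to 3747 interactions, 1420 to 2468 positive and 408 (without wDah Yaa replicate 1) to 1279 (without Gcn2 Yaa replicate 2) negative. The cause of these moves was not tested. No named gene changed direction, and 120 of 164 called named genes kept their calls with each library left out. Estimated depths of 25.4 to 28.4 M reads leave genes near a mean of 10 imprecise.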

Other observations

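Runs of 3 or more neighbouring genes that each rose by over 4-fold lay in 4 places. Beside the GstD cluster these were CG42362 to CG42365 on chromosome 2R from 21664126 to 21667594 (4 genes, log2 fold changes 3.76 to 5.32), where CG42362 and CG42363 hold identical values and share exons with CG42364. On chromosome 3L they were CG43678, CG18581 and CG12310 from 15049179 to 15050806 (2.33 to 4.78), and CG7290, CG6996 and CG7017 from 20204309 to 20212122 (3.93 to 6.32). On the small chromosome 4, which is largely heterochromatic, 4 of 165 genes tested were higher and 2 lower (2.42% and 1.21%), where on the other chromosomes 12.9% to 17.9% were higher and 5.21% to 5.88% lower. These were looked for after the values were seen.

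MsrA had an uneven pattern over the 8 groups of the table of all 24 libraries. Its mean normalized count in wDah flies was 866 on Yaa, 1054 on -M, 9622 on -R and 1514 on -All. In the mutants it was 880.0 on Yaa, 9789 on -M, 2232 on -R and 1429.9 on -All. The mean was highest without arginine in wDah flies and without methionine in the mutants. The arginine contrasts were tested (given above), and those without methionine were not. Diet labels were taken as given, with no check of them by values.

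Outside the groups above, the clock repressor tim held 2055, 1756 and 1879 on Yaa and 3213, 4969 and 5009 on -R (log2 fold change 1.19, SE 0.19, adjusted p = 0.00773 in limma), the 1 called gene of 10 clock genes, with 2 without Yaa replicate 2. Lcp1, a larval cuticle gene, held 55.4, 48.8 and 27.7 on Yaa and 7.22, 2.08 and 2.07 on -R, low values at which the fold change is imprecise. The stress gene Gadd45 held 293, 210.2 and 246 on Yaa and 623, 669.7 and 604 on -R (log2 fold change 1.35, SE 0.15, adjusted p = 0.00169 in limma), and the cell death gene hid held 553, 498 and 469 on Yaa and 249, 253 and 273 on -R (log2 fold change -0.97, SE 0.12, adjusted p = 0.0024 in limma). None of 18 DNA replication and cell cycle genes was called by limma and none had an unadjusted p under 0.05, with 8 higher of 16 tested without both ovary-rich libraries. Against the Yaa mean, the median log2 value of this list was 3.32 in Yaa replicate 2 and 1.83 in -R replicate 1. It was negative in every other library, a spread within groups that hinders calls.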
